A study of Homo sapiens with 17 samples.

Results

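The copies described here are the members of 3 neighbouring LINE-1 subfamilies, L1PA7, L1PA8 and L1PA8A, as the repeat annotation of the human genome (build hg38) names them. Every annotated locus whose subfamily name was exactly L1PA7, L1PA8 or L1PA8A was taken, which gave 21626 of 3594049 repeat loci. L1PA7 contributed 12345 loci, L1PA8 7107 and L1PA8A 2174. A copy was called full-length where its annotated end minus start exceeded 5900 bases, which held for 1067 copies, made up of 791 of L1PA7, 167 of L1PA8 and 109 of L1PA8A. The other 20559 copies were shorter. The shortest full-length copy was 5903 bases long and the longest of the shorter copies 5899.

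LINE-1 elements are retrotransposons that move through an RNA intermediate. A complete element has a promoter in its 5′ untranslated region, a first reading frame for ORF1p, which forms trimers that coat RNA, and a second for ORF2p, an endonuclease and reverse transcriptase. Both proteins tend to bind the RNA that encoded them and can also take up other RNAs. The L1PA subfamilies are numbered from the young ones toward the old ones, L1HS is the human lineage that still moves, and L1PA7, L1PA8 and L1PA8A are older primate lineages whose copies have gathered mutations and are not known to move today. Most copies are truncated at the 5′ end, lie inside genes or both, so their sequence can also be present in RNA that began at another promoter.

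The cells were N2102Ep, an established line from a human embryonal carcinoma, whose undifferentiated and pluripotent-like cells express LINE-1; their RNA was sequenced in 4 groups without any treatment or time course. Immunoprecipitates of ORF1p (ORF1p RIP, 4 libraries) and of ORF2p (ORF2p RIP, 4 libraries) were set beside a mock immunoprecipitate (mock IP, 3 libraries, whose descriptions name mIgG) and total RNA (6 libraries). The mock IP, ORF2p RIP and total RNA libraries are labelled as clone 2/A6 of the line, and the ORF1p RIP libraries by its embryonal source, so in comparisons of ORF1p RIP with the other groups the antibody and the labelled source cannot be told apart. Nothing in the labels says that libraries of a group came from separate cultures, so p-values cover only how far these libraries differ, and that difference may be technical. Total RNA libraries fall in 2 series by their descriptions, b (replicates 1 and 2) and bl (replicates 3 to 6). RNA was bulk RNA of many cells, in which more cells with a transcript and more RNA per cell cannot be told apart.

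Estimated counts over all repeat loci summed to 7693841 to 9125527 per library in ORF1p RIP, 9795032 to 17056092 in ORF2p RIP, 12703395 to 16271143 in mock IP and 8937441 to 19670774 in total RNA. Levels are given below as CPM, which are counts scaled by these totals and the TMM factors, and changes as log2 ratios. Repeats that mark pluripotent cells were present in every library, with the HERVH internal sequence between 31225 and 196636 CPM and LTR7 between 1982 and 13683 CPM. LTR7Y lay between 210 and 971 CPM and LTR7B between 177 and 495 CPM. Of the repeats active in placenta, HERV17-int lay between 141 and 309 CPM and LTR17 between 102 and 429 CPM. Their ranges overlapped those of LTR7Y and LTR7B. ORF1p RIP replicate 3 stood apart from the other 3 ORF1p RIP libraries at many of the copies, and the main changes of ORF1p RIP are given with and without it.

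The members were diverged and mostly short. Full-length copies had a median length of 6419 bases and a median divergence from their consensus of 102 per mille, against 637 bases and 77 per mille for shorter copies. Divergence of full-length copies was lowest in L1PA7 (median 98 per mille), followed by L1PA8 (111) and L1PA8A (120). Every full-length copy had an estimated count above 0 in at least 1 of the 17 libraries, and all but 1 a count of at least 1. Of the shorter copies, 2193 (10.7%) were at 0 in every library and 3482 (16.9%) stayed under 1 in every library. Within a library, 5827 to 6780 copies had an estimated count above 0 in ORF1p RIP, 8697 to 10498 in ORF2p RIP, 9015 to 9686 in mock IP and 7714 to 10395 in total RNA. Some loci are pieces of the same insertion, since 5571 copies (25.8%), 49 of them full-length, had another locus of the same subfamily and strand within 1000 bases.

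Of the members, 48.5% lay wholly within the span of a RefSeq gene, 45.6% of the full-length and 48.7% of the shorter copies. For 15.2% of members a gene on the same strand spanned the copy. For 21.0% a gene on the opposite strand did, with none known to be on the same strand. The strand was known for 45.7% of the gene spans. Exons and introns were not told apart. Reads of a copy within a gene on its own strand can come from the gene's transcript or from the copy's own, and these cannot be told apart in the counts.

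Summed over all copies, L1PA7 and L1PA8A were called higher in ORF2p RIP than in each other group. The ORF2p RIP libraries of L1PA8 also lay above those of mock IP, but its changes did not pass the threshold. L1PA7 measured 5908, 5941, 10461 and 6291 CPM in the 4 ORF1p RIP libraries, 19884, 21209, 19608 and 18396 CPM in ORF2p RIP and 6827, 6674 and 6157 CPM in mock IP. In total RNA it ranged from 4152 to 10466 CPM (median 7548). All 4 ORF2p RIP libraries lay above every other library, while ORF1p RIP replicate 3 lay above the other ORF1p RIP and the mock IP libraries and within the range of total RNA. ORF2p RIP exceeded mock IP by a log2 change of 1.59 (SE 0.28, adjusted p = 5.22e-04), ORF1p RIP by 1.47 (SE 0.25, adjusted p = 1.32e-04) and total RNA by 1.47 (SE 0.22, adjusted p = 9.65e-05), in edgeR's quasi-likelihood test with Benjamini-Hochberg adjustment over 1074 subfamilies. Without ORF1p RIP replicate 3 the change against ORF1p RIP was 1.71.

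L1PA8A, the subfamily with the fewest copies, measured 665, 709.9, 1329.9 and 745 CPM in ORF1p RIP, 2947, 3307, 2948 and 2761 CPM in ORF2p RIP and 957, 962 and 898 CPM in mock IP. Its total RNA level ranged from 650.5 to 1375 CPM (median 1019). The ORF2p RIP libraries again lay above all others. The log2 change in ORF2p RIP was 1.67 (SE 0.26, adjusted p = 1.73e-04) against mock IP, 1.79 (SE 0.24, adjusted p = 7.96e-06) against ORF1p RIP and 1.62 (SE 0.21, adjusted p = 1.83e-05) against total RNA. These calls rested on 1 copy, on chromosome X: without it, the changes were 0.74, 0.76 and 0.68, all under 2-fold. Without ORF1p RIP replicate 3, and with that copy in, the change against ORF1p RIP was 2.08.

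L1PA8 measured 1738, 1810.3, 2780.0 and 1833 CPM in ORF1p RIP, 2565, 2774, 2659 and 2421 CPM in ORF2p RIP, 2019, 1984 and 1813 CPM in mock IP and from 1375 to 2729 CPM (median 2038) in total RNA. Its ORF2p RIP libraries lay above mock IP but overlapped the ORF1p RIP libraries because of replicate 3 there. The log2 change of ORF2p RIP was 0.43 (SE 0.20, adjusted p = 0.121) against mock IP, 0.35 (SE 0.19, adjusted p = 0.124) against ORF1p RIP and 0.41 (SE 0.17, adjusted p = 0.0721) against total RNA, and none passed the threshold of an adjusted p under 0.05 with at least a 2-fold change. Without ORF1p RIP replicate 3 the change against ORF1p RIP was 0.54 (adjusted p = 0.0188), still under 2-fold.

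None of the 3 subfamilies passed the threshold between ORF1p RIP and mock IP. The log2 changes were 0.13 (SE 0.27, adjusted p = 0.718) for L1PA7, 0.073 (SE 0.20, adjusted p = 0.78) for L1PA8 and -0.12 (SE 0.25, adjusted p = 0.698) for L1PA8A. Without ORF1p RIP replicate 3 they were -0.12, -0.11 and -0.41, so the sign for L1PA7 and L1PA8 turned with that library. Against total RNA the ORF1p RIP changes were 0.0063 (SE 0.23, adjusted p = 0.984), 0.053 (SE 0.17, adjusted p = 0.803) and -0.18 (SE 0.21, adjusted p = 0.483), and without replicate 3 -0.24, -0.13 and -0.46. With series b alone as total RNA they were 0.635 (adjusted p = 0.00314), 0.45 (adjusted p = 0.0067) and 0.29 (adjusted p = 0.175). With bl alone they were -0.29 (adjusted p = 0.0671), -0.17 (adjusted p = 0.188) and -0.43 (adjusted p = 0.0167). All were under 2-fold, and the signs turned with the series. Mock IP and total RNA did not pass the threshold either, with changes of -0.12 (SE 0.25, adjusted p = 0.743), -0.020 (SE 0.19, adjusted p = 0.942) and -0.054 (SE 0.23, adjusted p = 0.873). These too turned with the series, at 0.57, 0.43 and 0.47 with b alone and -0.36, -0.19 and -0.25 with bl alone.

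Over all 1074 subfamilies tested, 6.70% were higher and 1.49% lower in ORF2p RIP than in mock IP, 12.4% and 6.52% than in ORF1p RIP, and 5.12% and 1.3% than in total RNA; 2 of the 3 subfamilies described here were called in each. In ORF1p RIP against mock IP, 7.36% of subfamilies were higher and 8.75% lower, and none of these 3 was called. In ORF1p RIP against total RNA, 9.12% were higher and 8.29% lower, and in mock IP against total RNA 0.745% were higher and 0% lower, again without any of the 3. Scaling by library totals alone, the median change over all subfamilies moved from -0.03 to -0.34 in ORF2p RIP against mock IP and from -0.05 to -0.47 against total RNA, and over all single loci from -0.19 to -0.54 and from -0.20 to -0.68. The subfamilies called there were 43 higher and 64 lower in place of 72 and 16, and 30 higher and 77 lower in place of 55 and 14.

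The neighbouring subfamilies give the scale of these changes. Of the 6 younger subfamilies from L1HS to L1PA6, 3 were called higher in ORF1p RIP than in mock IP and 6 higher in ORF2p RIP, with median log2 changes of 0.93 and 2.07. Of the 7 older ones from L1PA10 to L1PA16, 0 were called higher in ORF1p RIP and 5 in ORF2p RIP, with medians of -0.11 and 1.14. Counting full-length copies alone, 6 of the 6 younger and 3 of the 7 older were higher in ORF2p RIP than in mock IP, with medians of 2.43 and 0.66. In that comparison full-length and shorter copies changed by 1.54 and 1.80 in L1PA6 and by 1.61 and 1.62 in L1PA10. The log2 ratio of member reads to reads of the next younger subfamily, L1PA6, was 0.97 ± 0.072 in ORF1p RIP (SD, n = 4), 1.07 ± 0.070 in ORF2p RIP (n = 4), 1.34 ± 0.022 in mock IP (n = 3) and 1.41 ± 0.052 in total RNA (n = 6). Both RIPs therefore held fewer member reads per L1PA6 read than mock IP did, with no overlap of libraries (exact two-sided permutation p = 0.0571 for each, the smallest that 4 against 3 libraries allow). Against the next older subfamily, L1PA10, the log2 ratio was 2.21 in ORF1p RIP, 1.70 in ORF2p RIP, 1.89 in mock IP and 1.80 in total RNA. Per L1PA10 read, members were thus most abundant in ORF1p RIP and least in ORF2p RIP, with no overlap between either RIP and mock IP (exact permutation p = 0.0571 for each).

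Per kilobase of annotated sequence, which allows levels to be set across subfamilies, full-length copies in ORF2p RIP stood at 2.54 ± 0.219 CPM for L1PA8A, 1.16 ± 0.0902 for L1PA7 and 0.476 ± 0.0353 for L1PA8 (SD, n = 4), with no overlap of L1PA8 with the others. In mock IP the order was another, 0.361 ± 0.0328 for L1PA8, 0.345 ± 0.0252 for L1PA8A and 0.236 ± 0.0182 for L1PA7 (n = 3), the first pair within their spread. In ORF1p RIP it was 0.465 ± 0.163 for L1PA8, 0.350 ± 0.127 for L1PA7 and 0.169 ± 0.1003 for L1PA8A (n = 4), with L1PA8 and L1PA7 within their spread. Without replicate 3 the ORF1p RIP levels were 0.384 ± 0.0282, 0.286 ± 0.0141 and 0.119 ± 0.00344 CPM (n = 3), and none overlapped. The order in ORF2p RIP rested on the copy on chromosome X: with the most-read copy of each subfamily left out, a setting chosen after seeing the data, it was 0.793 ± 0.0619 for L1PA7, 0.436 ± 0.0336 for L1PA8 and 0.322 ± 0.0269 for L1PA8A.

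As a share of all repeat reads, the members made up 0.853, 0.874, 1.18 and 0.929% in ORF1p RIP, 2.08, 2.27, 2.15 and 2.02% in ORF2p RIP and 0.987, 1.02 and 0.929% in mock IP. The ORF2p RIP share, 2.13% ± 0.106 (SD, n = 4), was above that of every other library, against 0.958% ± 0.149 in ORF1p RIP (n = 4), 0.979% ± 0.0470 in mock IP (n = 3) and 1.11% ± 0.296 in total RNA (n = 6). The exact permutation p was 0.0571 against mock IP and 0.0286 against ORF1p RIP, each the smallest the numbers of libraries allow, and 0.00952 against total RNA. In all, 60 such tests were made on values per library, of which 14 had a Benjamini-Hochberg adjusted p of 0.0408 and the others did not pass. All 14 compared ORF1p RIP or ORF2p RIP with total RNA, the comparisons with the most libraries. In the other comparisons even the smallest p that the numbers of libraries allow did not pass after adjustment over these tests.

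**Figure D1:**
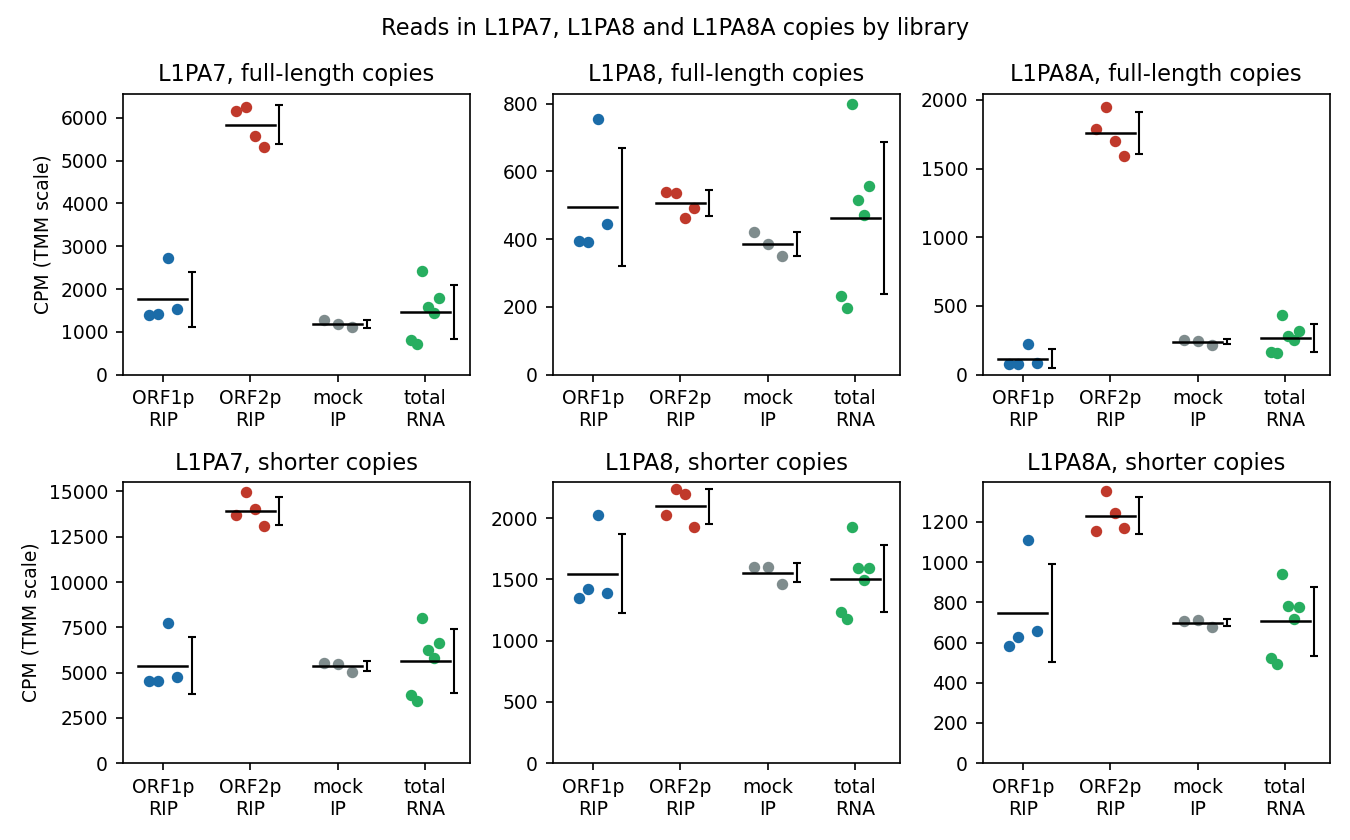
Level in CPM (vertical axis, from 0) of full-length and shorter copies of L1PA7, L1PA8 and L1PA8A in each library of the 4 groups on the horizontal axis; points are libraries, lines group means and bars 1 SD. Full-length L1PA7 and L1PA8A stood highest in ORF2p RIP, with all 4 libraries between 5317 and 6261 and between 1591 and 1952 CPM, and ORF1p RIP replicate 3 is the high point of its group in every panel.

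Split by length, the full-length copies of L1PA7 and L1PA8A differed most between the groups among the members' length classes. Full-length L1PA7 measured 1389, 1419.8, 2725 and 1525 CPM in ORF1p RIP, 6166, 6261, 5585 and 5317 CPM in ORF2p RIP, 1288, 1172 and 1106 CPM in mock IP and from 722 to 2424 CPM (median 1507) in total RNA. No ORF2p RIP library overlapped another group. The log2 change in ORF2p RIP was 2.29 (SE 0.36, adjusted p = 1.93e-04) against mock IP, 1.72 (SE 0.32, adjusted p = 2.37e-04) against ORF1p RIP and 2.00 (SE 0.28, adjusted p = 4.38e-05) against total RNA. In ORF1p RIP the change against mock IP was 0.57 (SE 0.34, adjusted p = 0.173), which did not pass, and 0.28 (adjusted p = 0.488) without replicate 3. Without that library the change of ORF2p RIP against ORF1p RIP was 2.01.

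Shorter L1PA7 copies measured 4519, 4521, 7736 and 4766 CPM in ORF1p RIP, 13718, 14948, 14023 and 13079 CPM in ORF2p RIP and 5539, 5502 and 5051 CPM in mock IP, and ranged from 3430.3 to 8042 CPM (median 6041) in total RNA. They too were higher in ORF2p RIP than in every other library, by a log2 change of 1.38 (SE 0.26, adjusted p = 9.31e-04) against mock IP, 1.37 (SE 0.24, adjusted p = 1.36e-04) against ORF1p RIP and 1.30 (SE 0.21, adjusted p = 1.84e-04) against total RNA. With library totals the change against total RNA was 0.90 and under 2-fold. ORF1p RIP and mock IP differed by 0.0056 (SE 0.25, adjusted p = 0.986), and by -0.22 (adjusted p = 0.459) without replicate 3, where ORF2p RIP and ORF1p RIP differed by 1.60.

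Full-length L1PA8A measured 80.7, 81.0, 221 and 84.9 CPM in ORF1p RIP, 1789.7, 1952, 1703 and 1591 CPM in ORF2p RIP, 252, 247 and 219 CPM in mock IP and from 157 to 432 CPM (median 269.8) in total RNA. ORF2p RIP lay above and ORF1p RIP mostly below the mock IP range, with ORF1p RIP replicate 3 overlapping it. The log2 change in ORF2p RIP was 2.88 (SE 0.39, adjusted p = 5.48e-05) against mock IP, 3.91 (SE 0.37, adjusted p = 2.28e-07) against ORF1p RIP and 2.71 (SE 0.30, adjusted p = 4.50e-06) against total RNA. It rested on the copy on chromosome X, without which the changes were 0.36 (adjusted p = 0.411), 0.98 and 0.15. The change against ORF1p RIP was 4.42 without ORF1p RIP replicate 3.

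Full-length L1PA8A was the only one of the 6 subfamily and length classes called lower in ORF1p RIP than in mock IP, at a log2 change of -1.04 (SE 0.36, adjusted p = 0.0218). Without replicate 3, which was high, it was -1.54, and without the chromosome X copy -0.62 (adjusted p = 0.119). The call was near the 2-fold limit: leaving out ORF1p RIP replicate 1, 2 or 4 or mock IP replicate 1 or 2 gave -0.90, -0.90, -0.91, -0.999 and -1.01, none of them called. Against total RNA the change was -1.21 (SE 0.31, adjusted p = 0.00363), but -0.56 with the 2 total RNA libraries of series b alone and -0.83, under 2-fold, without the chromosome X copy. Such a fall was not particular to L1PA8A. Of the full-length classes of the 7 older subfamilies, 2 were called lower and 2 higher in ORF1p RIP than in mock IP. Against total RNA 3 of them were lower and 2 higher.

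Shorter L1PA8A copies measured 585, 629, 1109 and 659.9 CPM in ORF1p RIP, 1157, 1356, 1245 and 1171 CPM in ORF2p RIP and 705, 715 and 679 CPM in mock IP, with from 493 to 943 CPM (median 749) in total RNA. The change in ORF2p RIP against mock IP, 0.82 (SE 0.23, adjusted p = 0.0119), was under 2-fold, as were those against ORF1p RIP, 0.73 (SE 0.21, adjusted p = 0.00676) or 0.98 without replicate 3, and total RNA, 0.80 (SE 0.18, adjusted p = 0.0032). With series b alone as total RNA, the last of these was 1.24 and called.

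Neither length class of L1PA8 was called in any of the 6 comparisons when all libraries were used. Full-length L1PA8 measured 393, 391.6, 754 and 445 CPM in ORF1p RIP, 539, 538, 461 and 493 CPM in ORF2p RIP and 420.4, 384 and 350.5 CPM in mock IP, and ORF2p RIP differed from mock IP by 0.40 (SE 0.37, adjusted p = 0.432). Shorter L1PA8 copies measured 1344, 1419, 2026 and 1388 CPM, 2026, 2236, 2198 and 1929 CPM and 1599, 1599 and 1463 CPM in those groups, and differed by 0.43 (SE 0.16, adjusted p = 0.0526). The change of ORF2p RIP against ORF1p RIP was 0.034 (SE 0.34, adjusted p = 0.939) for full-length and 0.44 (SE 0.15, adjusted p = 0.0196) for shorter copies, and without ORF1p RIP replicate 3 0.31 and 0.60. With series b alone, full-length L1PA8 was called higher than total RNA in ORF1p RIP, at 1.12, and in ORF2p RIP, at 1.196. Full-length L1PA7 in ORF1p RIP was likewise called against series b alone, at 1.12. Of 1149 subfamily and length classes tested, 8.36% were higher and 10% lower in ORF1p RIP than in mock IP, 7.92% and 1.74% in ORF2p RIP against mock IP, 14.2% and 7.57% in ORF2p RIP against ORF1p RIP, 10% and 10% in ORF1p RIP against total RNA, and 6.09% and 1.74% in ORF2p RIP against total RNA. In mock IP against total RNA the shares were 0.696% and 0%, and none of the 6 classes was called.

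The share of member reads that fell in full-length copies separated the groups differently in each subfamily. For L1PA7 it was 24.4% ± 1.12 in ORF1p RIP (SD, n = 4), 29.5% ± 1.11 in ORF2p RIP (n = 4), 18.1% ± 0.667 in mock IP (n = 3) and 19.9% ± 2.14 in total RNA (n = 6). Both RIPs lay above mock IP without overlap (exact permutation p = 0.0571 for each). For L1PA8 the share was 23.9% ± 2.40 in ORF1p RIP and 19.5% ± 1.59 in ORF2p RIP, against 19.8% ± 0.848 in mock IP and 22.3% ± 5.91 in total RNA, and here ORF1p RIP alone lay above mock IP. That depended on the length limit, since with it at 5500 bases the L1PA8 share was 5.34 percentage points higher in ORF2p RIP than in mock IP and 1.18 higher than in ORF1p RIP. For L1PA8A it was 12.9% ± 2.51 in ORF1p RIP and 58.8% ± 1.44 in ORF2p RIP, against 25.5% ± 0.960 in mock IP and 26.9% ± 2.91 in total RNA, so that the RIPs lay on opposite sides of mock IP as long as the copy on chromosome X was counted. With the most-read copy of each subfamily left out, the L1PA8A shares were 12.4% ± 2.60 in ORF1p RIP, 15.2% ± 0.727 in ORF2p RIP, 19.7% ± 0.760 in mock IP and 21.9% ± 1.38 in total RNA, so that both RIPs lay below. Those of L1PA7 were 24.3% ± 1.10, 22.3% ± 0.870, 16.9% ± 0.670 and 18.5% ± 1.52, with both RIPs still above mock IP but ORF1p RIP now the highest. The ORF1p RIP libraries of L1PA8A held 12.1, 11.4, 16.6 and 11.4%, and replicate 3 was again the highest of them. Without it the ORF1p RIP shares were 23.9% ± 0.365 for L1PA7, 22.8% ± 1.32 for L1PA8 and 11.7% ± 0.418 for L1PA8A (n = 3).

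ORF1p and ORF2p RIP also differed in where the member reads lay. Whether reads of other repeats differ in the same way was not tested. Copies within gene spans held 80.0, 79.6, 76.8 and 79.4% of member reads in ORF1p RIP, 47.8, 48.9, 48.7 and 48.7% in ORF2p RIP and 66.4, 66.3 and 66.6% in mock IP. Libraries of these 3 groups did not overlap: the means were 78.9% ± 1.46, 48.6% ± 0.487 and 66.4% ± 0.146, with 65.7% ± 2.24 in total RNA. Copies within a gene on their own strand held 42.9% ± 2.87 in ORF1p RIP, 25.1% ± 0.376 in ORF2p RIP, 32.9% ± 1.06 in mock IP and 32.8% ± 6.67 in total RNA. The difference in gene-span share had an exact permutation p of 0.0286 between the RIPs and 0.0571 between each RIP and mock IP.

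**Figure D2:**
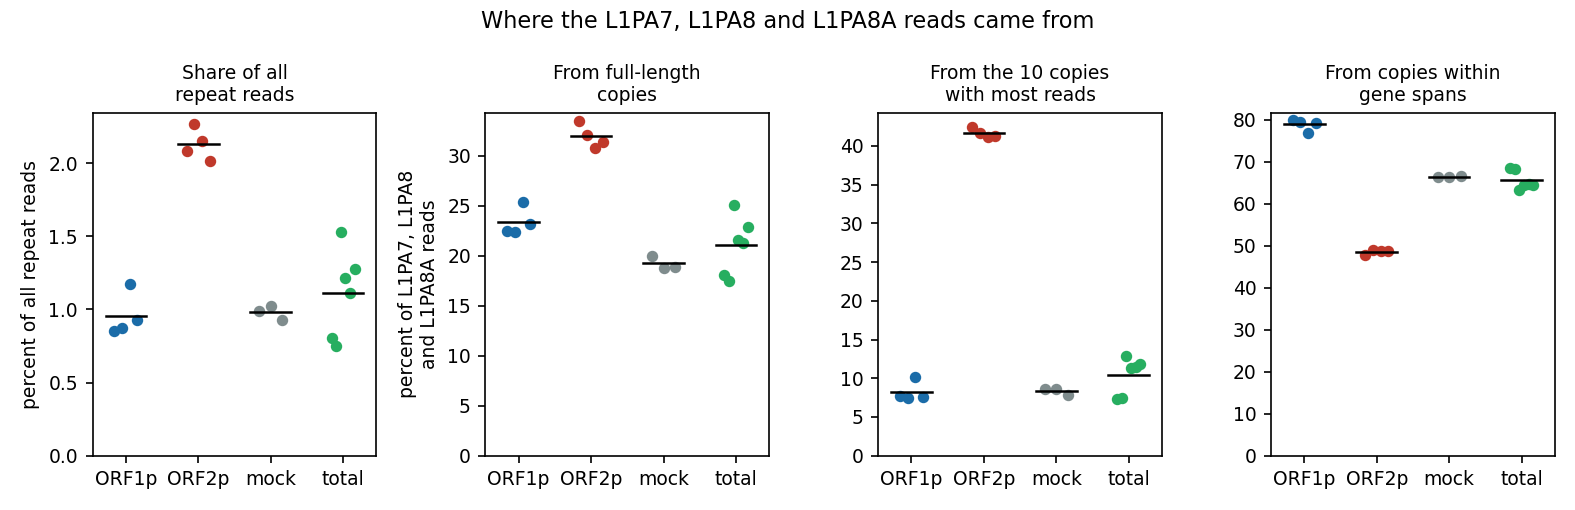
Shares of member reads in percent (vertical axes) by library for the 4 groups on the horizontal axis; points are libraries and lines group means. ORF2p RIP holds the highest share of all repeat reads, 2.13% ± 0.106, and the lowest share within gene spans, 48.6% ± 0.487, and ORF1p RIP the highest share within gene spans, 78.9% ± 1.46.

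A small number of copies carried much of the ORF2p RIP signal. Ranked within each library, 19 to 23 copies held 50% of the member reads in ORF2p RIP, against 149 to 254 copies in ORF1p RIP, 313 to 358 in mock IP and 164 to 439 in total RNA. The 10 copies with most reads in a library held 41.6% ± 0.630 of member reads in ORF2p RIP, 8.24% ± 1.29 in ORF1p RIP, 8.36% ± 0.409 in mock IP and 10.4% ± 2.37 in total RNA. The top 100 copies held a median of 63.2% in ORF2p RIP, 34.2% in ORF1p RIP, 31.2% in mock IP and 38.0% in total RNA.

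**Figure D3:**
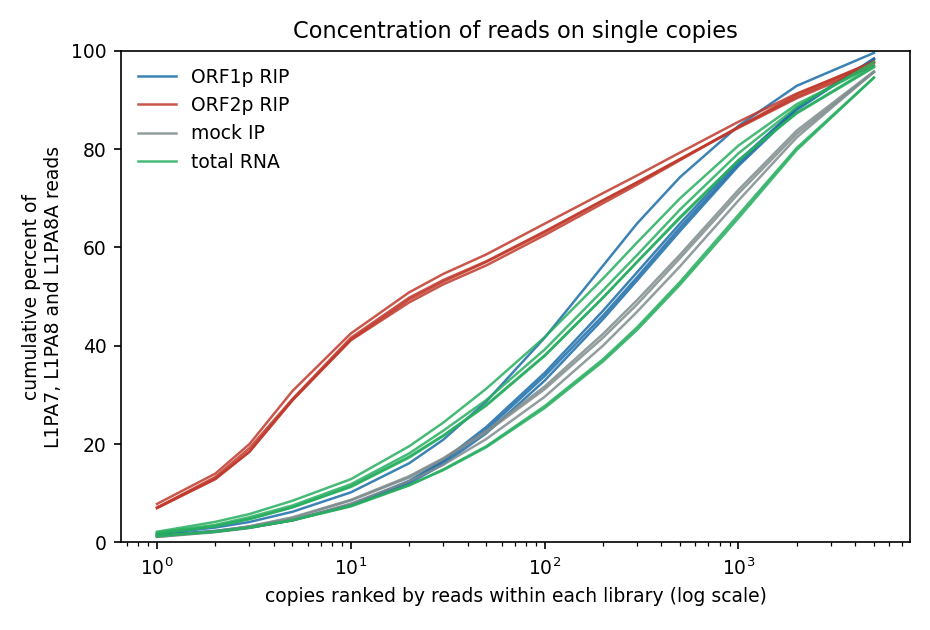
Cumulative percent of member reads (vertical axis) against the rank of the copy by reads within each library (horizontal axis, logarithmic), with 1 line per library coloured by group. The ORF2p RIP lines rise first, reaching a median of 41.4% at rank 10, where those of ORF1p RIP reach 7.67%.

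The same 10 copies, chosen by their mean level in ORF2p RIP, held 41.6% ± 0.631 of member reads there but 0.876% in ORF1p RIP, 6.04% in mock IP and 6.60% in total RNA. As they were chosen for their ORF2p RIP level, these shares are a description. With them left out, which was chosen after seeing the data, the members' share of repeat reads was 1.24% in ORF2p RIP, 0.9496% in ORF1p RIP, 0.920% in mock IP and 1.04% in total RNA. The ORF2p RIP libraries then lay between 1.18 and 1.32% and those of total RNA between 0.723 and 1.39%, so they overlapped. The full-length share in ORF2p RIP then was 16.8%, with libraries overlapping those of mock IP at 17.7% and below the 22.9% of ORF1p RIP, where with them it had been 31.9% against 19.2% and 23.3%. The gene-span share kept its order, at 56.9% in ORF2p RIP, 68.9% in mock IP and 79.1% in ORF1p RIP. The summed L1PA7 level without the 10 was 10755 CPM in ORF2p RIP, 7065 in ORF1p RIP, 6049 in mock IP and 6466 in total RNA.

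Of these 10 copies 5 were full-length, and 5 lay within gene spans, 4 of them in a gene on the same strand. The copy with most ORF2p RIP reads was a full-length L1PA7 copy at chr5:85582242-85588699 on the minus strand, outside any gene span, which measured 4.98, 3.71, 14.96 and 9.20 CPM in ORF1p RIP, 1989, 1925, 1793 and 1640.2 CPM in ORF2p RIP, 105, 103 and 85.5 CPM in mock IP and from 28.9 to 294 CPM (median 159.8) in total RNA. ORF2p RIP lay above and ORF1p RIP below every mock IP and total RNA library. The log2 change was 4.23 (SE 0.65, adjusted p = 4.76e-05) in ORF2p RIP and -3.58 (SE 0.59, adjusted p = 1.57e-05) in ORF1p RIP, both against mock IP.

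The second, and the copy on which the L1PA8A results rested, was a full-length L1PA8A copy at chrX:98880536-98886909 on the plus strand, outside any gene span. It measured 2.66, 3.85, 6.13 and 5.91 CPM in ORF1p RIP, 1565, 1708, 1483 and 1392 CPM in ORF2p RIP, 69.3, 72.8 and 59.7 CPM in mock IP and from 16.9 to 129 CPM (median 75.7) in total RNA. The groups stood in the same order, again with no overlap of either RIP with mock IP. The log2 change was 4.51 (SE 0.60, adjusted p = 8.35e-06) in ORF2p RIP and -3.86 (SE 0.54, adjusted p = 1.98e-06) in ORF1p RIP, both against mock IP. This copy was the L1PA8A locus with most reads, and the difference between the RIPs was a log2 change of 8.38 (SE 0.64, adjusted p = 2.27e-10).

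The full-length L1PA7 copy at chr14:30404509-30410867, on the minus strand within the long noncoding RNA gene LOC112267868, measured 1.53, 2.44, 7.01 and 4.75 CPM in ORF1p RIP, 1527, 1603, 1384 and 1312 CPM in ORF2p RIP, 42.7, 38.0 and 32.6 CPM in mock IP and from 13.7 to 108 CPM (median 61.7) in total RNA. It was lower in every ORF1p RIP library than in any mock IP library. The log2 change was 5.27 (SE 0.66, adjusted p = 3.86e-06) in ORF2p RIP and -3.27 (SE 0.56, adjusted p = 2.74e-05) in ORF1p RIP, both against mock IP.

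Another full-length L1PA7 copy, at chr11:23731595-23738045 within LINC02726 on the same strand, measured 0.654, 1.27, 0.385 and 1.14 CPM in ORF1p RIP, 477, 482, 397 and 402 CPM in ORF2p RIP, 16.8, 18.5 and 15.4 CPM in mock IP and from 6.98 to 40.6 CPM (median 23.8) in total RNA. The order of the groups was the same. The log2 change was 4.70 (SE 0.55, adjusted p = 1.93e-06) in ORF2p RIP and -4.30 (SE 0.53, adjusted p = 3.97e-07) in ORF1p RIP, both against mock IP. Its change between ORF2p RIP and ORF1p RIP, 8.997 (SE 0.61, adjusted p = 5.02e-11), was among the largest named.

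The full-length copy that ranked 5 among full-length ones in ORF2p RIP lay at chr1:92388403-92394485 in RPAP2, a gene for an RNA polymerase II phosphatase, on the same strand. It measured 34.4, 39.2, 77.0 and 33.9 CPM in ORF1p RIP, 372, 356, 338 and 323 CPM in ORF2p RIP, 26.6, 29.8 and 20.7 CPM in mock IP and from 8.68 to 33.5 CPM (median 22.7) in total RNA. Here the ORF1p RIP libraries also lay above mock IP, with replicate 3 highest, though the fitted change in ORF1p RIP did not pass. The log2 change was 3.75 (SE 0.48, adjusted p = 4.78e-06) in ORF2p RIP and 0.84 (SE 0.42, adjusted p = 0.0865) in ORF1p RIP, both against mock IP.

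The shorter copies with most ORF2p RIP reads came in adjacent pieces. On chromosome 4, chr4:19059850-19063767 and chr4:19064235-19066752 are L1PA7 loci on the plus strand that may be pieces of 1 insertion. The first measured 1495, 1428, 1329.8 and 1315 CPM in ORF2p RIP, 1.93, 5.67, 11.97 and 4.26 in ORF1p RIP and 121, 109.9 and 99.5 in mock IP, and changed by 3.66 (SE 0.61, adjusted p = 1.02e-04) in ORF2p RIP against mock IP. The second measured 1247, 1297, 1321 and 1149.9, 2.19, 2.53, 5.58 and 2.62 and 77.9, 74.8 and 66.7 CPM in the same groups and changed by 4.10 (SE 0.52, adjusted p = 4.83e-06). At both, ORF2p RIP lay above and ORF1p RIP below every mock IP library.

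On chromosome 19, the L1PA7 loci chr19:21447595-21448359 and chr19:21446143-21447496 lie next to each other on the minus strand within the long noncoding RNA gene LOC105372321, which runs on the same strand. They measured 825, 989, 852 and 844 CPM and 670.0, 909.6, 814 and 688 CPM in ORF2p RIP, against 40.4, 53.4 and 38.2 CPM and 33.9, 41.0 and 29.8 CPM in mock IP. In ORF1p RIP the values were 1.39, 1.86, 4.24 and 3.94 CPM and 2.82, 1.86, 0.486 and 2.51 CPM. The changes in ORF2p RIP against mock IP were 4.32 (SE 0.60, adjusted p = 1.34e-05) and 4.46 (SE 0.54, adjusted p = 2.89e-06). The L1PA7 fragment at chrX:111553618-111554335 on chromosome X changed by 3.36 (SE 0.39, adjusted p = 1.52e-06), and its ORF1p RIP libraries measured 10.7, 8.21, 23.6 and 8.68 CPM against 61.7, 59.98 and 66.9 CPM in mock IP.

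**Figure D4:**
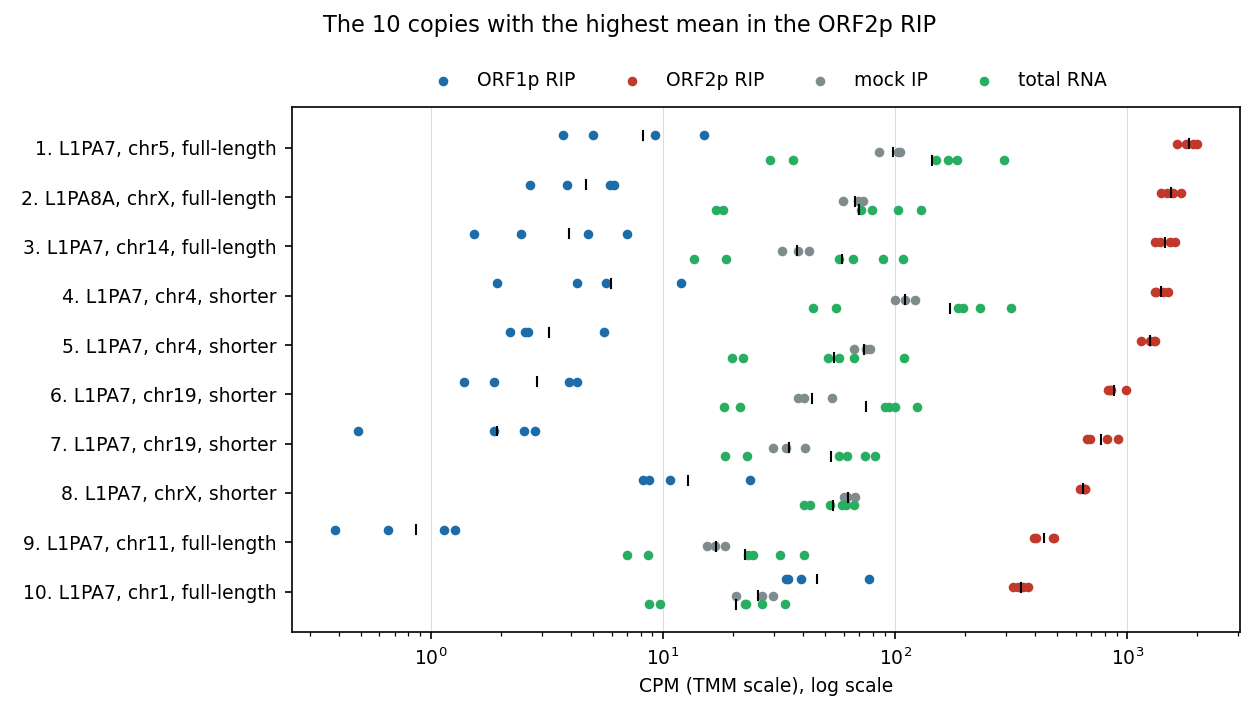
Level in CPM (logarithmic axis) of the 10 member copies with the highest mean in ORF2p RIP, by library, coloured by group, with black ticks at the group means. For the leading copy the ORF2p RIP libraries lie between 1640.2 and 1989 CPM and those of ORF1p RIP between 3.71 and 14.96 CPM.

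Tests on single copies could be made for 2072 of the 21626 members, 367 of 1067 full-length and 1705 of 20559 shorter, since the other copies had too few reads. A copy passed this filter through reads in any group, so the counts that follow describe copies with reads and not all members. They stand beside the share called among 196463 loci of all repeats tested in the same fit. Between ORF1p RIP and mock IP, 489 copies were higher and 765 lower, 23.6% and 36.9%, where 28.8% and 31.1% of all loci were called. The median log2 change was -0.41, or -0.40 with the groups at a rounded count of 0 set at their bound, against 0.06 for all loci. Without ORF1p RIP replicate 3, 400 copies were higher and 794 lower.

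Full-length copies leaned to the lower side in ORF1p RIP, with 71 higher and 126 lower of 367 and a median of -0.40. Among the shorter ones 418 were higher and 639 lower of 1705. Without replicate 3 these were 65 and 128, and 335 and 666. The full-length L1PA8A copies leaned furthest: 1 was higher and 18 of 31 lower, with a median of -2.56. Full-length L1PA7 gave 59 higher and 92 lower of 283, and full-length L1PA8 11 and 16 of 53, with medians of -0.28 and 0.092. Of the tested copies, 179 had estimated counts that rounded to 0 in every ORF1p RIP library, 7 of them full-length, and 10 in every ORF2p RIP and 3 in every mock IP library. Such counts were not made for all loci, so whether members differ from other repeats in them was not tested. The ORF1p RIP libraries also held fewer repeat reads than those of ORF2p RIP or mock IP.

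Between ORF2p RIP and mock IP, 425 copies were higher and 161 lower, 20.5% and 7.77%, where 14.2% and 11.5% of all loci were called. The split depended on the scaling, since with library totals in place of TMM 337 were higher and 284 lower, which makes 54.3% of the calls higher in place of 72.5%. Among all loci that share moved as well, to 36.9% with library totals from 55.3%, so it was lower than among members under both scalings. Leaving out mock IP replicate 1, 2 or 3 brought the lower copies to 83, 91 and 105. Full-length copies gave 104 higher and 4 lower, and shorter ones 321 and 157; with library totals these were 77 and 21, and 260 and 263. The median change was 0.64 for full-length and 0.035 for shorter copies, against -0.19 for all loci. Among full-length copies, 88 of 283 of L1PA7, 9 of 53 of L1PA8 and 7 of 31 of L1PA8A were higher.

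The RIPs differed most from each other. Between ORF2p RIP and ORF1p RIP, 977 copies were higher and 489 lower, 47.2% and 23.6%, where 33.6% and 30% of all loci were called. The median was 1.08 (1.07 with groups at a rounded count of 0 at their bound), against 0.04 for all loci. It was 1.48 for full-length copies, of which 190 were higher and 58 lower, and 0.91 for shorter ones, of which 787 were higher and 431 lower. For full-length L1PA8A it was 4.22, with 20 higher and 4 lower of 31. Leaving out ORF1p RIP replicate 3, 1010 copies were higher and 433 lower, of which 201 and 51 were full-length.

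Calls against mock IP in the RIPs share the mock IP libraries and are given side by side only. Such joint counts were not made for all loci, so whether members differ from other repeats in them was not tested. Of the 2072 copies, 140 were lower in ORF1p RIP and higher in ORF2p RIP, 33 the reverse, 94 higher in both and 55 lower in both, and 554 were called in neither. A further 570 were lower in ORF1p RIP alone, 362 higher in ORF1p RIP alone, 191 higher in ORF2p RIP alone and 73 lower in ORF2p RIP alone.

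The copies called in opposite directions lay in different places. Gene spans were assigned to members only, so whether called loci of other repeats show the same was not tested. Of the copies tested, 67.6% lay within gene spans. Among copies higher in ORF1p RIP than in mock IP the share was 76.9%, and among those lower 53.7%. For ORF2p RIP it was 48.2% among higher and 88.2% among lower copies. A gene on the copy's own strand spanned 29.7% of tested copies, 38.9% of those higher and 22.0% of those lower in ORF1p RIP, and 16.7% and 57.8% for ORF2p RIP. Against each other, copies higher in ORF2p RIP than in ORF1p RIP lay within gene spans in 52.8% of cases and those lower in 85.3%.

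**Figure D5:**
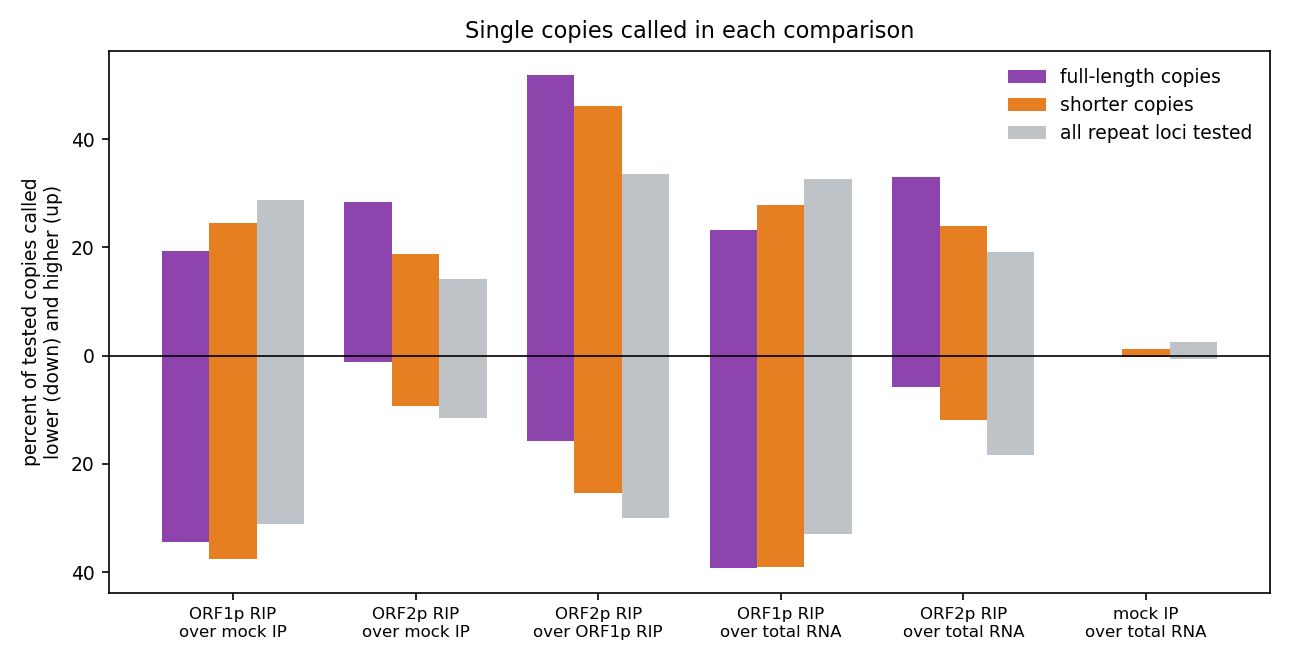
Percent of tested copies called higher (upward bars) and lower (downward bars), at an adjusted p under 0.05 and at least 2-fold, in the 6 comparisons for full-length members, shorter members and all repeat loci. In ORF2p RIP against mock IP, 28.3% of full-length members were higher and 1.09% lower, or 77 and 21 of 367 with library totals, while in ORF1p RIP against mock IP 19.3% were higher and 34.3% lower.

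Against total RNA, ORF1p RIP had 559 copies higher and 810 lower (32.6% and 33% of all loci; 26.98% and 39.1% of these), and ORF2p RIP 528 higher and 222 lower (19.2% and 18.4%; 25.5% and 10.7%). Without replicate 3, ORF1p RIP had 464 higher and 849 lower. With library totals, ORF2p RIP had 356 higher and 436 lower, so that 44.9% in place of 70.4% of the calls were higher. Of the calls among all loci, 30.2% in place of 51.1% were then higher. With series b or bl alone, ORF1p RIP had 633 and 419 copies higher and 557 and 677 lower. Calls over all loci were not set beside these counts, so whether members differ from other repeats there was not tested. Series b and bl also differ in the members' share of repeat reads, 0.777% and 1.28%, and its part in these counts was not tested. Mock IP and total RNA differed at 20 copies higher and 5 lower, 80.0% of them higher (68.4% with library totals), where 2.51% and 0.531% of all loci were called. These counts moved with single libraries, from 1 higher without mock IP replicate 1 to 39 higher without total RNA replicate 1, and from 0 lower without mock IP replicate 2 or 3 to 26 lower without total RNA replicate 2. All copies called with every library in were shorter ones, and at an unadjusted p under 0.05 172 copies differed, 14 of them full-length.

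Some full-length copies with clear mock IP levels were nearly absent from ORF1p RIP. The L1PA8 copy at chr20:39969159-39975570, outside any gene span, measured 0.321, 0, 0 and 0.351 CPM in ORF1p RIP, 70.1, 58.1 and 52.6 CPM in mock IP, 48.3, 45.7, 43.6 and 41.6 CPM in ORF2p RIP and from 19.7 to 148 CPM (median 93.5) in total RNA. Its log2 change in ORF1p RIP against mock IP was -8.31 (SE 0.75, adjusted p = 3.72e-09). The L1PA7 copy at chr7:34229562-34235891, also outside gene spans, measured 0, 0, 0 and 0.0285 CPM in ORF1p RIP, less than 1 whole read, against 6.49, 5.69 and 6.64 CPM in mock IP. Taking 3 counts over the group as the floor, it was at least 67.7-fold lower in ORF1p RIP than in mock IP (adjusted p = 6.09e-09) and at least 72.3-fold higher in ORF2p RIP than in ORF1p RIP, with 6.36, 7.98, 7.50 and 4.89 CPM in ORF2p RIP. The copy of L1PA8 at chr9:118855535-118861777 within LOC101928849 was at least 34.5-fold lower in ORF1p RIP than in mock IP by the same floor (adjusted p = 7.86e-06).

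Shorter copies showed the same absence. An L1PA8 copy at chr12:8493996-8494907 measured 0, 0, 0 and 0 CPM in ORF1p RIP and 13.4, 14.7 and 11.3 CPM in mock IP, at least 142-fold lower (adjusted p = 6.66e-10). The copy of L1PA7 at chr21:27767678-27768744 was at least 128-fold lower (adjusted p = 3.32e-10). An L1PA7 copy at chr14:41736593-41738504 in LRFN5, a gene for a neuronal adhesion protein, was at least 102-fold lower (adjusted p = 3.16e-07). For 3 other shorter copies the contrast was with ORF2p RIP: the L1PA8 copy at chr19:21553673-21554353 was at least 233-fold higher there than in ORF1p RIP, the L1PA7 copy at chr12:60149182-60150509 at least 202-fold and the L1PA7 copy at chr14:28955835-28960275 in LINC02327 at least 138-fold higher.

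Other full-length copies were higher in ORF1p RIP. The L1PA7 copy at chr2:181088927-181095379, 100 bases from LOC107985831, measured 1.04, 3.24, 76.0 and 1.46 CPM in ORF1p RIP, 0.330, 0.258 and 0.232 CPM in mock IP, 5.63, 6.14, 6.86 and 8.16 CPM in ORF2p RIP and from 0.0506 to 0.630 CPM (median 0.420) in total RNA. Replicate 3 supplied most of this level: the log2 change was 6.24 (SE 1.23, adjusted p = 1.41e-04) with it and 2.84 (adjusted p = 0.00102) without it. The L1PA8 copy at chrX:12848800-12855207, outside gene spans, did not rest on that library: it measured 9.60, 9.60, 20.3 and 14.02 CPM in ORF1p RIP, 0.488, 0.192 and 0.122 CPM in mock IP and 1.06, 0.623, 0.337 and 0.0727 CPM in ORF2p RIP, a log2 change of 5.54 (SE 0.75, adjusted p = 1.35e-06) against mock IP. Without mock IP replicate 1 that change was 6.24. The copy of L1PA8 at chr12:75461126-75467572 had so few mock IP reads that its change is given as a ratio of summed reads scaled to depth, 63.4 (95% counting interval 17.04 to 531), with 3.75, 1.63, 1.30 and 3.78 CPM in ORF1p RIP. Without mock IP replicate 2 the ratio was 40.8. Such intervals cover counting error only.

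Among shorter copies higher in ORF1p RIP, the L1PA7 fragment at chr10:69511777-69512094 in TSPAN15, which encodes a tetraspanin membrane protein, measured 2.01, 4.10, 1.29 and 2.05 CPM and was at least 36.4-fold higher than in mock IP (adjusted p = 1.32e-05). The L1PA7 fragment at chr14:23583650-23583899 was at least 36.0-fold higher. Leaving out a library of the lower group lowers such a bound by construction, since fewer libraries set the floor; without mock IP replicate 2 these were at least 23.4-fold and at least 23.1-fold. An L1PA8 copy at chr6:145774797-145778466, in EPM2A-DT on the opposite strand, measured 2.69, 4.45, 14.4 and 1.86 CPM in ORF1p RIP and gave a ratio of 236 (95% counting interval 41.9 to 9394) over mock IP (adjusted p = 3.78e-06). It rested on single libraries: the ratio was 136 without ORF1p RIP replicate 3, and without mock IP replicate 3, which held the only mock IP count of at least 1 after rounding, the copy was at least 63.7-fold higher.

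Against ORF2p RIP, the contrast toward ORF1p RIP was led by L1PA8A. The adjacent loci chr4:74563245-74565081 and chr4:74565409-74567446, on the opposite strand of the long noncoding RNA gene LOC107986229, may be pieces of 1 insertion. They measured 9.96, 10.2, 38.8 and 12.8 CPM and 8.97, 9.74, 20.2 and 10.03 CPM in ORF1p RIP, 0, 0, 0 and 0 CPM and 0, 0, 0 and 0.0343 CPM in ORF2p RIP, and 0.245, 0.0607 and 0.225 CPM and 0.366, 0.0304 and 0 CPM in mock IP. They were at least 249-fold and at least 169-fold lower in ORF2p RIP than in ORF1p RIP. The first was at least 152-fold lower without ORF1p RIP replicate 3. Without ORF2p RIP replicate 4 the bounds were at least 162-fold and at least 110.2-fold. The full-length L1PA7 copy at chr2:209487996-209494440 in MAP2, the gene of a neuronal microtubule-associated protein, on the same strand, measured 12.4, 11.4, 22.0 and 12.02 CPM in ORF1p RIP and gave a ratio of ORF1p RIP over ORF2p RIP of 193 (95% counting interval 65.6 to 939), or 376 without ORF2p RIP replicate 4. The full-length L1PA7 copy at chr10:27587034-27593439, outside gene spans, measured 4.37, 3.32, 13.1 and 6.52 CPM in ORF1p RIP and 0, 0.129, 0.315 and 0.234 CPM in ORF2p RIP, a log2 change of -5.27 (SE 0.86, adjusted p = 1.25e-05) in ORF2p RIP. The L1PA7 fragment at chr2:130045999-130046525 in the pseudogene FAR2P1 was at least 78.5-fold lower in ORF2p RIP, or at least 51.0-fold without ORF2p RIP replicate 4.

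Among full-length copies, the largest fitted rises in ORF2p RIP over mock IP included the chr14:30404509-30410867 copy described above and others of lower level. The copy of L1PA7 at chr13:90812907-90819339, outside gene spans, measured 21.4, 23.0, 19.98 and 16.995 CPM in ORF2p RIP, 0.251, 0.847 and 0.487 CPM in mock IP and 0.121, 0.2496, 0.499 and 0 CPM in ORF1p RIP, and changed by 5.27 (SE 0.56, adjusted p = 6.07e-07). An L1PA7 copy at chr6:54327154-54333629, in TINAG on the same strand, measured 3.44, 3.01, 3.56 and 2.80 CPM in ORF2p RIP and 0.0617, 0.210 and 0.0842 CPM in mock IP, and changed by 4.78 (SE 0.78, adjusted p = 1.25e-04), or by 5.39 without mock IP replicate 2. Among shorter copies, the L1PA8 copy at chr21:15462544-15464966 gave a ratio of 154 (95% counting interval 42.2 to 1277) and the L1PA7 copy at chr5:154126264-154127973 one of 67.0 (95% counting interval 18.2 to 559.6). Without mock IP replicate 1 these ratios were 99.3 and 43.2. Without mock IP replicate 2, which held the only mock IP counts of the chromosome 21 copy after rounding, that copy was at least 67.1-fold higher. The L1PA8 copy at chr3:163230766-163232135 in LINC01192 was higher than mock IP in both RIPs, with 4.0004, 4.48, 15.1 and 4.77 CPM in ORF1p RIP, 4.21, 4.82, 6.74 and 4.38 CPM in ORF2p RIP and a ratio of ORF2p RIP over mock IP of 76.4 (95% counting interval 25.8 to 374). That ratio was 49.3 without mock IP replicate 1 and 147 without mock IP replicate 2.

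The members lower in ORF2p RIP than in mock IP that the rule named lay within genes. The full-length L1PA7 copy at chr10:42533748-42540162 in the pseudogene ZNF37BP measured 6.95, 6.35, 2.51 and 7.03 CPM in ORF2p RIP, 23.2, 18.9 and 20.2 CPM in mock IP and 23.1, 24.2, 53.6 and 24.9 CPM in ORF1p RIP, and changed by -1.86 (SE 0.52, adjusted p = 0.00989). The copies in MAGI2 (chr7:78268793-78275399), the gene of a scaffold protein, and in NDUFA9 (chr12:4671945-4678293), that of a subunit of respiratory complex I, lay on the gene's strand and changed by -1.40 (SE 0.45, adjusted p = 0.0247) and -1.23 (SE 0.44, adjusted p = 0.0407). The MAGI2 call was lost without mock IP replicate 2 or ORF2p RIP replicate 2 or 3, at -1.21, -1.24 and -1.31. The NDUFA9 call held only when the library left out was ORF2p RIP replicate 2, and the other 6 gave changes between -1.30 and -1.13. Among shorter copies, the L1PA8 fragment at chr14:73309225-73309718 in NUMB, an inhibitor of Notch signalling, changed by -2.72 (SE 0.46, adjusted p = 1.28e-04). The L1PA7 copy at chr3:101735396-101739625 in CEP97, a centrosome gene, changed by -2.66 (SE 0.53, adjusted p = 7.08e-04), and the L1PA8A copy at chr9:97454495-97457386 in TDRD7, a gene of the germline RNA granule, by -2.66 (SE 0.95, adjusted p = 0.0403), a call lost without mock IP replicate 1 or 2 or ORF2p RIP replicate 1, 3 or 4, at -2.61 to -2.23. Without ORF2p RIP replicate 2 it was -3.75.

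In the comparisons with total RNA, the named copies included the full-length L1PA7 copy at chr1:675912-682333, partly overlapping OR4F16, which changed by 5.71 (SE 0.52, adjusted p = 1.16e-08) in ORF2p RIP. The shorter L1PA7 copy at chr7:55454203-55456952, in VOPP1 on the opposite strand, changed by 6.32 (SE 0.43, adjusted p = 1.37e-10). The copy of L1PA7 at chr12:43386224-43388479 in ADAMTS20, a gene of a secreted metalloprotease, measured 0.233, 0, 0 and 0.143 CPM in ORF2p RIP and from 0.486 to 3.62 CPM (median 2.90) in total RNA, a change of -4.44 (SE 0.82, adjusted p = 2.22e-04), or -5.03 without ORF2p RIP replicate 1. Between mock IP and total RNA, the L1PA8 fragment at chr21:28050036-28050226 in LINC01697 changed by 2.09 (SE 0.37, adjusted p = 0.00492) and the one at chr4:143528081-143528537 in SMARCA5, a chromatin remodeller, by -2.41 (SE 0.56, adjusted p = 0.021); the latter was lost without mock IP replicate 1, 2 or 3, at -2.31, -2.47 and -2.45, and both with series b alone, at 1.90 and -0.42.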

How the data were processed

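RNA bound to ORF1p or ORF2p, mock immunoprecipitates and total RNA of N2102Ep cells were compared in 17 libraries. TRIzol and phenol-chloroform freed the RNA from the affinity media, per the labels' protocols; it was treated with DNase, and made into libraries with a kit that depletes ribosomal RNA by probes. Per the submitters' processing notes the aligner was STAR and the build hg38; the counting tool, its strand setting and its treatment of reads with several equally good positions are not given in the sources used here. Since copies of a subfamily share much of their sequence, that treatment can move reads between them. The authors deposited 1 table of estimated counts (expected counts) per repeat locus, with position, strand, subfamily and divergence. Of its 60 value columns 17 were used and 43 were not used.

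Estimated counts were rounded and, for subfamilies and length classes, summed. edgeR 4.0.16 (R 4.3.3, limma 3.58.1) fitted all 17 libraries by group with TMM factors from the subfamily table, filterByExpr at a minimum count of 10 (subfamilies) or 20 (single loci), quasi-likelihood tests and Benjamini-Hochberg adjustment over everything tested. A call needed an adjusted p under 0.05 and at least a 2-fold change; SE is the fitted change over the square root of F. Values per library were compared by exact two-sided permutation tests. The fit was tested on simulated data. Alternatives were DESeq2 1.42.0, library totals, other minimum counts, only the groups compared, a replicate block, series b or bl of total RNA, other length limits, leaving out each library, and leaving out the copy with most reads, over all members for values per library and of each subfamily in the fits. The latter, its use for full-length shares and levels per kilobase, read counts of at least 1, and bounds with a library left out were chosen after seeing the data.

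Named copies were, in each length class, the 3 with the largest rise and the 3 with the largest fall in each comparison among immunoprecipitates (1 each against total RNA), among those called, with at least 2 CPM in a group and no overlap between libraries, and the 5 with the highest mean over the 4 group means of CPM. Members and lists were chosen with earlier results of these data known. Gene spans came from RefSeq (GRCh38.p14); intervals and floors cover counting error only.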

Additional observations from a re-analysis of the deposited data

Results flagged for a closer look

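In 34 of 185 groups of libraries examined, the highest or lowest library lay farther from its neighbour, relative to the range of the group, than Dixon's 95% limit allows. Of independent groups about 5%, or 1 in 20, pass it by chance. These groups share libraries and reads, and many are copies named for large changes, so their number cannot be set against that share.

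Most were ORF1p RIP replicate 3. It was the highest of the 4 ORF1p RIP libraries in all 9 subfamily and length levels, at 10461 CPM for L1PA7 (next 6291), 2725 CPM for L1PA7 full-length (next 1525), 7736 CPM for L1PA7 shorter (next 4766), 2780.0 CPM for L1PA8 (next 1833), 754 CPM for L1PA8 full-length (next 445), 2026 CPM for L1PA8 shorter (next 1419), 1329.9 CPM for L1PA8A (next 745), 221 CPM for L1PA8A full-length (next 84.9), 1109 CPM for L1PA8A shorter (next 659.9).

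The same library was highest in full-length share of L1PA8A reads (16.6%, next 12.1%), share of member reads in spans on the same strand (47.2%, next 41.8%), share of member reads from the 10 leading copies (10.2%, next 7.73%), and lowest in the log2 ratio of member to L1PA6 reads (0.87, next 1.0002).

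Among single copies it was highest, with the next library in brackets, at L1PA7 chr10:42533748-42540162 with 53.6 CPM (24.9), L1PA7 chr1:92388403-92394485 with 77.0 CPM (39.2), L1PA7 chr2:181088927-181095379 with 76.0 CPM (3.24), L1PA7 chr2:209487996-209494440 with 22.0 CPM (12.4), L1PA8 chr3:163230766-163232135 with 15.1 CPM (4.77), L1PA7 chr4:19064235-19066752 with 5.58 CPM (2.62), L1PA8A chr4:74563245-74565081 with 38.8 CPM (12.8), L1PA8A chr4:74565409-74567446 with 20.2 CPM (10.03), L1PA8A chr9:97454495-97457386 with 15.4 CPM (2.97), L1PA7 chrX:111553618-111554335 with 23.6 CPM (10.7).

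For some copies 1 library held the only reads of its group: ORF1p RIP replicate 2 with 0.0621 CPM at L1PA7 chr14:28955835-28960275, ORF1p RIP replicate 2 with 0.372 CPM at L1PA8 chr21:15462544-15464966, ORF1p RIP replicate 4 with 0.0285 CPM at L1PA7 chr7:34229562-34235891, ORF1p RIP replicate 4 with 0.0194 CPM at L1PA8 chr9:118855535-118861777, ORF2p RIP replicate 4 with 0.0343 CPM at L1PA8A chr4:74565409-74567446, total RNA replicate 5 with 0.126 CPM at L1PA7 chr2:130045999-130046525. At such low values a single library above 0 passes the limit by construction.

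The others were ORF1p RIP replicate 2 at L1PA7 chr14:23583650-23583899, highest with 3.74 CPM (next 1.94), ORF2p RIP replicate 3 at L1PA7 chr10:42533748-42540162, lowest with 2.51 CPM (next 6.35), ORF2p RIP replicate 2 at L1PA7 chr19:21447595-21448359, highest with 989 CPM (next 852), ORF2p RIP replicate 2 at L1PA8A chr9:97454495-97457386, highest with 1.02 CPM (next 0.221), total RNA replicate 3 at L1PA8 chr12:75461126-75467572, highest with 0.269 CPM (next 0.0725).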

How the results depend on the processing

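The calls of L1PA7 in ORF2p RIP against the other 3 groups, whole and full-length, held in every alternative fit tried. No fit was made without the 10 leading copies, where mean L1PA7 levels lay closer together. They were 10755 CPM in ORF2p RIP, 7065 in ORF1p RIP, 6049 in mock IP and 6466 in total RNA. Of the named single copies, 272 values from other settings and 339 with a library left out kept their direction and call, and 9 and 17 lost the call. Every sign change under the alternatives fitted or tested was in a value that had not been called with all libraries in. The exception was the full-length share of L1PA8A in ORF2p/total without the chromosome X copy. Without the 10 leading copies, the full-length share of member reads was lower in ORF2p RIP than in total RNA, 16.8% against 19.6%. The libraries then overlapped. With those copies the share had been higher in ORF2p RIP, 31.9% against 21.0%. Below, ORF1p/mock stands for ORF1p RIP over mock IP, and the others likewise, changes are those of a subfamily or length class, and counts are of single copies called. With DESeq2, log2 changes in ORF1p/total were -0.017 for L1PA7. Those in ORF1p/mock were -0.028 for L1PA7 shorter. There, the counts in mock/total were 42 for copies higher and 14 for copies lower. With library totals, log2 changes in ORF1p/mock were -0.043 for L1PA8, -0.12 for L1PA7 shorter and -0.036 for L1PA8A shorter. Values in ORF1p/total were -0.21 for L1PA7, -0.16 for L1PA8, -0.15 for L1PA8A shorter, -0.11 for L1PA8 full-length and -0.18 for L1PA8 shorter. The ones in ORF2p/ORF1p were -0.14 for L1PA8 full-length. Those for ORF2p/total were -0.26 for L1PA8 full-length. Values for mock/total were -0.055 for L1PA8 shorter. There, the counts in ORF2p/mock were 284 for copies lower. The ones for ORF2p/total were 436 for copies lower. Those in mock/total were 13 for copies higher. With a lower read minimum (10), counts in ORF2p/ORF1p were 1480 for copies higher. Values in ORF1p/total were 840 for copies higher. The ones in mock/total were 2 for copies lower. With a higher read minimum (50), counts in ORF1p/mock were 264 for copies higher and 367 for copies lower. Those for ORF2p/mock were 257 for copies higher and 88 for copies lower. Values for ORF2p/ORF1p were 465 for copies higher and 255 for copies lower. The ones for ORF1p/total were 284 for copies higher and 390 for copies lower. Those in ORF2p/total were 276 for copies higher and 141 for copies lower. With only the 2 groups compared in the fit, log2 changes in ORF1p/total were -0.013 for L1PA7. Values in ORF1p/mock were -0.052 for L1PA7 shorter. There, the counts in ORF1p/mock were 335 for copies lower. The ones in ORF2p/ORF1p were 446 for copies higher and 313 for copies lower. Those for ORF1p/total were 480 for copies lower. Values for mock/total were 2 for copies lower. With the replicate number as a block, log2 changes in mock/total were 0.048 for L1PA7, 0.058 for L1PA8, 0.054 for L1PA8A, 0.081 for L1PA7 shorter, 0.086 for L1PA8A shorter and 0.018 for L1PA8 full-length. The ones for ORF1p/mock were -0.057 for L1PA7 shorter. Those in ORF1p/total were 0.025 for L1PA7 shorter. There, the counts in ORF2p/total were 114 for copies lower. Values in mock/total were 0 for copies higher and 0 for copies lower. With series b alone, log2 changes in ORF1p/total were 0.29 for L1PA8A and 0.51 for L1PA7 shorter. The ones in mock/total were 0.57 for L1PA7, 0.43 for L1PA8, 0.47 for L1PA8A, 0.61 for L1PA7 full-length, 0.56 for L1PA7 shorter, 0.56 for L1PA8A full-length, 0.44 for L1PA8A shorter and 0.82 for L1PA8 full-length. There, the differences in percentage points in ORF1p/total were 0.181 for member share of repeat reads and 0.850 for share of the 10 leading copies. Those for ORF2p/total were 1.35 for member share of repeat reads, 14.2 for full-length share of member reads, 4.42 for full-length share of L1PA8 reads and 0.785 for same-strand share. Values for mock/total were 0.202 for member share of repeat reads, 1.47 for full-length share of member reads, 0.487 for full-length share of L1PA7 reads, 4.74 for full-length share of L1PA8 reads, 1.44 for full-length share of L1PA8A reads, -2.07 for gene-span share and 0.969 for share of the 10 leading copies. There, the counts in ORF2p/total were 98 for copies lower. The ones for mock/total were 112 for copies higher and 0 for copies lower. With series bl alone, log2 changes in ORF1p/total were -0.29 for L1PA7, -0.17 for L1PA8, -0.080 for L1PA7 full-length, -0.15 for L1PA8A shorter, -0.29 for L1PA8 full-length and -0.13 for L1PA8 shorter. Those in ORF2p/total were -0.22 for L1PA8 full-length. Values in mock/total were -0.073 for L1PA8 shorter. There, the differences in percentage points in ORF2p/total were 0.845 for member share of repeat reads and 9.21 for full-length share of member reads. The ones in ORF1p/total were -2.01 for full-length share of L1PA8 reads. Those for mock/total were -4.26 for same-strand share. There, the counts in ORF2p/total were 358 for copies lower. Values for mock/total were 105 for copies higher and 187 for copies lower. Without the copy with most reads (of each subfamily in the fits, over all members in the shares), log2 changes in ORF2p/ORF1p were 0.76 for L1PA8A and -0.099 for L1PA8 full-length. The ones for ORF2p/mock were 0.74 for L1PA8A. Those in ORF2p/total were 0.68 for L1PA8A. There, the differences in percentage points in ORF2p/ORF1p were -2.08 for full-length share of L1PA7 reads. Values in mock/total were -0.0933 for same-strand share. The ones in ORF1p/mock were 0.253 for share of the 10 leading copies. There, the differences between log2 ratios in ORF2p/ORF1p were -0.0093 for log2 ratio of member to L1PA6 reads. Without the copy with most reads of each subfamily, differences in percentage points in ORF2p/ORF1p were -2.08 for full-length share of L1PA7 reads. Those for ORF2p/mock were 0.832 for full-length share of L1PA8 reads and -4.49 for full-length share of L1PA8A reads. Values for ORF2p/total were -6.65 for full-length share of L1PA8A reads. With the length limit at 5500, differences in percentage points in ORF2p/mock were 5.34 for full-length share of L1PA8 reads. The ones for ORF2p/ORF1p were 1.18 for full-length share of L1PA8 reads. Those in ORF2p/total were 2.86 for full-length share of L1PA8 reads. With the length limit at 6000, log2 changes in ORF2p/ORF1p were -0.018 for L1PA8 full-length. Ranges with a library left out in turn follow. Values in ORF1p/mock were -0.12 to 0.21 for L1PA7, -0.11 to 0.14 for L1PA8, -0.22 to 0.081 for L1PA7 shorter, -0.16 to 0.19 for L1PA8A shorter, -0.17 to 0.052 for L1PA8 shorter, -0.0939 to 0.0137 for member share of repeat reads and -0.765 to 0.140 for share of the 10 leading copies. The ones in ORF1p/total were -0.24 to 0.10 for L1PA7, -0.13 to 0.12 for L1PA8, -0.017 to 0.43 for L1PA7 full-length, -0.30 to 0.0094 for L1PA7 shorter, -0.18 to 0.18 for L1PA8A shorter, -0.17 to 0.28 for L1PA8 full-length and -0.12 to 0.10 for L1PA8 shorter. Those for mock/total were -0.24 to 0.034 for L1PA7, -0.10 to 0.11 for L1PA8, -0.15 to 0.079 for L1PA8A, -0.19 to 0.061 for L1PA7 shorter, -0.28 to 0.030 for L1PA8A full-length, -0.098 to 0.096 for L1PA8A shorter, -0.014 to 0.14 for L1PA8 shorter, 1 to 39 for copies higher, 0 to 26 for copies lower and -1.88 to 1.02 for same-strand share. Values for ORF2p/ORF1p were -0.063 to 0.31 for L1PA8 full-length. The ones for ORF2p/total were -0.022 to 0.35 for L1PA8 full-length, 0.941 to 1.10 for member share of repeat reads and 10.1 to 11.7 for full-length share of member reads. Those in ORF2p/mock were 83 to 146 for copies lower and -0.817 to 0.403 for full-length share of L1PA8 reads. The cause of these changes was not tested. The higher or lower read minimum itself changes how many copies are tested, and series b and bl leave 2 and 4 total RNA libraries. Replicate numbers were shared by the groups, but 12 of 21 same-number pairs correlated above 0.1, in a range of -0.52 to 0.52 (those numbered 1 at 0.22 to 0.52), and 6 of 15 libraries correlated best with their own number, so the numbers were not taken to pair the libraries and the replicate block is given here alone. Depth limits single copies: 19554 of 21626 members had too few reads to be tested.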
